A study of Rattus norvegicus with 15 samples.

Results

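Synovial tissue from 10 rats injected with complete Freund's adjuvant was compared with synovial tissue from 5 untreated control rats, by RNA sequencing with 1 library per rat. The 10 libraries are the 2 adjuvant groups of the series pooled, and with the controls they make up all 15 libraries. All rats were labelled WT. In the group called AIA here (adjuvant-induced arthritis, n = 5), 100 uL of the adjuvant was put into the tail skin. The group called Ab here (n = 5) had the same adjuvant and then an anti-cANGPTL4 antibody into the peritoneum, repeated every week. The control group (CON, n = 5) had neither. The labels name no group given the antibody alone and no group given a vehicle or an isotype antibody, so a value over the 10 rats averages rats with and without antibody. One Ab library, 21_8, carries 2 numbers in its title and was taken as 1 rat.

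Complete Freund's adjuvant is a suspension of killed mycobacteria in oil, and in rats it causes an immune-mediated arthritis in joints far from the injected site. The synovium is the thin tissue that lines a joint: a surface layer of macrophages and lubricin-secreting fibroblasts lies over a loose layer with blood vessels, fat and other fibroblasts. In inflamed synovium, small venules display adhesion molecules that let leukocytes leave the blood, and resident cells make chemokines, complement and acute phase proteins.

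Levels are given as log2 CPM (CPM scales counts to the total of a library; prior count 2), in the library order CON 2, 7, 11, 14, 17, then AIA 5, 13, 18, 19, 23, then Ab 3, 9, 10, 12, 21_8. A change is the log2 difference of the mean of the 2 adjuvant groups, each with equal weight, from control, with its standard error (SE) and the adjusted p of edgeR's quasi-likelihood test. Calling a gene took an adjusted p below 0.05, and "rose" or "fell" is used of called genes only. The changes of AIA and of Ab against control share the 5 control libraries, so their likeness is a description. The labelled tissue showed synovial marker RNA, since Prg4, which encodes lubricin, had an FPKM of 1890 ± 472 in control, 980 ± 246 in AIA and 984 ± 186 in Ab (mean ± SD, n = 5 each).

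Library totals ran from 31172215 to 34084345 counts. Libraries CON 2 and AIA 19 stood apart in skeletal muscle transcripts, with 9010 and 17300 CPM summed over 15 muscle genes, while every Ab library had 39.5 CPM or less. AIA 18, 19 and 23 stood apart in matrix, tendon and cell cycle transcripts, with list scores (mean log2 CPM minus the control mean) of 1.21 to 2.34, against -0.79 to 0.47 in AIA 5 and AIA 13. Without both muscle libraries 303 genes rose and 449 fell, and without the 3 AIA libraries 698 rose and 800 fell, against 609 and 712 with all libraries. Leaving out CON 2 alone gave 345 and 464, and leaving out CON 14 gave 371 and 495.

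Over the 16046 genes tested, 1321 were called, or 8.23%. Of these, 609 rose (3.8%) and 712 fell (4.44%), and the change was at least 2-fold in 245 and 172 of them. The median change of all tested genes was 0. A called gene was taken as changed alike when AIA and Ab moved the same way and differed from each other by at most 0.5 times the averaged change. This held for 365 genes that rose and 492 that fell, 64.9% of the called genes, or 2.27% and 3.07% of the tested genes. Their median change was 0.74 in AIA and 0.77 in Ab for the genes that rose. For those that fell it was -0.67 in AIA and -0.71 in Ab. The rule of likeness itself keeps these medians close. The remaining called genes, 244 higher and 220 lower, moved unequally: among the higher ones 175 moved more in AIA and 69 more in Ab, and among the lower ones 74 moved more in AIA and 146 more in Ab. The difference Ab minus AIA was itself called in 140 of the 1321 genes, a count that ran from 28 without Ab 10 to 364 without AIA 5, and was 0 without AIA 18, 19 and 23. Of 133 called genes that the rule for named genes gives, 94 stayed called in every alternative setting in which they were tested, 39 lost the call in at least 1 of 24 settings, and none changed sign. These named genes were picked by their values in the same data. Of all 1321 called genes, 791 stayed called without CON 2, 835 without CON 14 and 708 without both muscle libraries. Just inside the limit of likeness stood Spns2, with 0.53 in AIA and 0.88 in Ab, and just outside stood Il3ra, with 0.21 and 0.36. Among genes that fell, Serpina1 was just inside, with -1.41 in AIA and -0.85 in Ab, and Prkacb just outside, with -0.17 and -0.29.

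**Figure D1:**
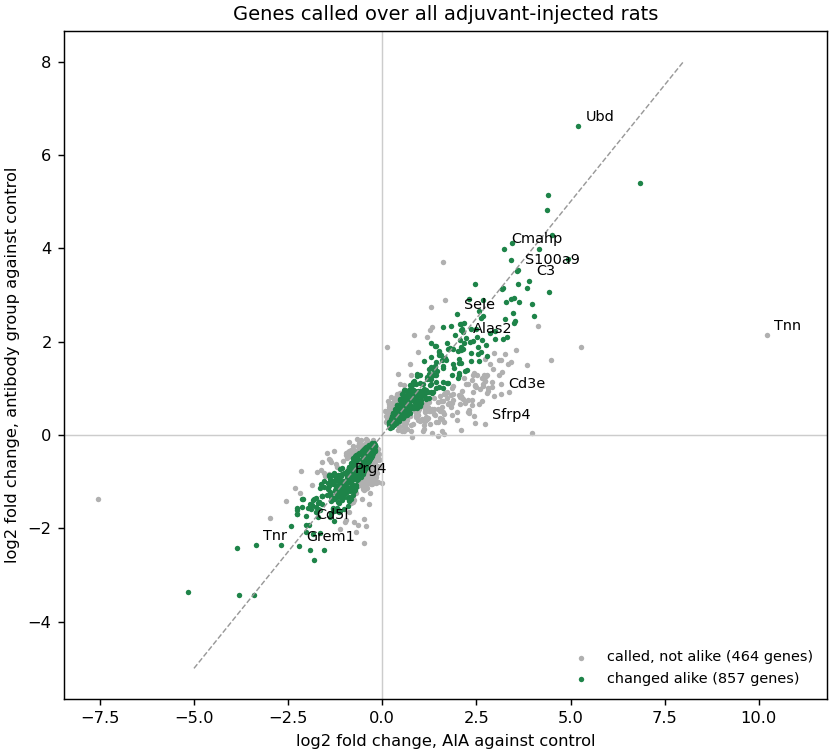
Log2 fold change against control in AIA (x axis) and in Ab (y axis) for the 1321 genes called over all adjuvant-injected rats. Green points are the 857 genes changed alike, grey points are the others, and the dashed line marks equal change. Both axes share the control libraries. Ubd lies at 5.21 and 6.62.

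With each group tested alone, 1370 genes were called in AIA (8.54%; 5.09% higher and 3.45% lower) and 1291 in Ab (8.05%; 3.38% higher and 4.66% lower). Between Ab and AIA 935 of all tested genes differed (5.83%; 1.83% higher and 3.99% lower in Ab). In 549 genes the call went the same way in both groups, which is 40.1% of the AIA calls and 42.5% of the Ab calls. All 549 were also called over the 10 rats, which nearly follows from the calls in both groups because the averaged change is built from them. Without CON 14 the genes called the same way numbered 132 higher and 183 lower, without CON 2 they numbered 143 and 193, and without CON 11 the lower ones numbered 196, against 246 and 303 with all libraries. In 458 tested genes (2.85%; 1.16% higher and 1.7% lower) the 10 adjuvant libraries did not overlap the 5 control libraries, and among the genes changed alike this held for 160 that rose and 237 that fell. For such a gene the two-sided exact permutation test on log2 CPM gives 0.000666, the smallest p it can give with 10 against 5 libraries.

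The transcript with the largest rise among those changed alike without overlap, at a mean of at least 1 log2 CPM, was Ubd, which encodes the ubiquitin-like protein FAT10 and is induced by interferon-gamma and tumour necrosis factor. Ubd measured -2.2, -2.07, -1.89, -4.02 and -1.13 in the control libraries, 2.51, 3.12, 3.0, 3.15 and 2.3 in AIA and 3.8, 4.68, 4.44, 4.19 and 4.03 in Ab. No adjuvant library came near the control levels, which averaged 0.289 FPKM. The change was 5.92 ± 0.39 (adjusted p = 1.87e-06), with 5.21 in AIA and 6.62 in Ab. It is 1 of 4 genes changed alike in which the groups also differed from each other, with Ab minus AIA at 1.41 ± 0.3 (adjusted p = 0.0205).

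The complement component C3, on which all complement pathways converge, rose too. C3 measured 2.98, 3.02, 2.74, 2.32 and 3.42 in the control libraries, 6.26, 6.06, 7.06, 6.93 and 7.45 in AIA and 5.53, 6.63, 6.89, 5.31 and 6.18 in Ab. Every adjuvant library lay more than 1 log2 unit above the highest control library, and the change was 3.61 ± 0.33 (adjusted p = 2.07e-05). Other complement genes rose in unequal amounts: Cfb, the protease of the alternative pathway, by 1.85 in AIA and 1.01 in Ab, and Cfp, which encodes properdin, by 1.14 in AIA and 0.49 in Ab. Of 20 complement genes tested 5 rose and 2 fell, with 2 and 2 alike. Cd55, which encodes an inhibitor of the complement convertases, fell by 1.22 ± 0.2, and it is also counted among the lining fibroblast genes below. The median change of the complement list was 0.28, with 0.47 in AIA and -0.01 in Ab. Tested alone, AIA had 9 members higher and 1 lower, and Ab had 2 higher and 2 lower.

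The smallest p after that of Ubd belonged to Il2rg, the chain shared by the receptors of several interleukins. Il2rg measured 4.3, 4.52, 4.39, 4.13 and 4.67 in the control libraries, 5.6, 5.68, 5.9, 5.74 and 5.8 in AIA and 5.66, 5.88, 5.58, 5.48 and 5.86 in Ab. The 2 adjuvant groups overlapped each other and neither overlapped the controls, with a change of 1.31 ± 0.1 (adjusted p = 3.94e-06). Plac8, a small cysteine-rich protein of leukocytes, rose by 1.38 ± 0.11 (adjusted p = 9.73e-06), again without overlap.

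Subunit genes of the epithelial sodium channel rose alike. Scnn1b, its beta subunit, rose by 1.66 ± 0.14 (adjusted p = 9.73e-06) and Scnn1g, its gamma subunit, by 2.61 ± 0.31 (adjusted p = 0.000166). The homeobox gene Meox1 rose by 2.62 ± 0.3, the lipoxygenase gene Alox15 by 2.62 ± 0.59, and Tmem255a and Cmahp, for which no role is given here, by 2.61 ± 0.28 and 3.61 ± 0.32. In all 6 of these genes the 10 adjuvant libraries lay above all control libraries, which for all but Scnn1b was a condition of their naming. Alox15 was not called by limma voom, at 2.38 (adjusted p = 0.0521), and Ab 9, at 4.15 log2 CPM, stood apart from the other Ab libraries. The metal-binding metallothioneins Mt2A and Mt1 rose by 2.22 ± 0.34 and 1.68 ± 0.26, and they were the called members of a list of 14 glucocorticoid response genes, whose median change was -0.2.

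**Figure D2:**
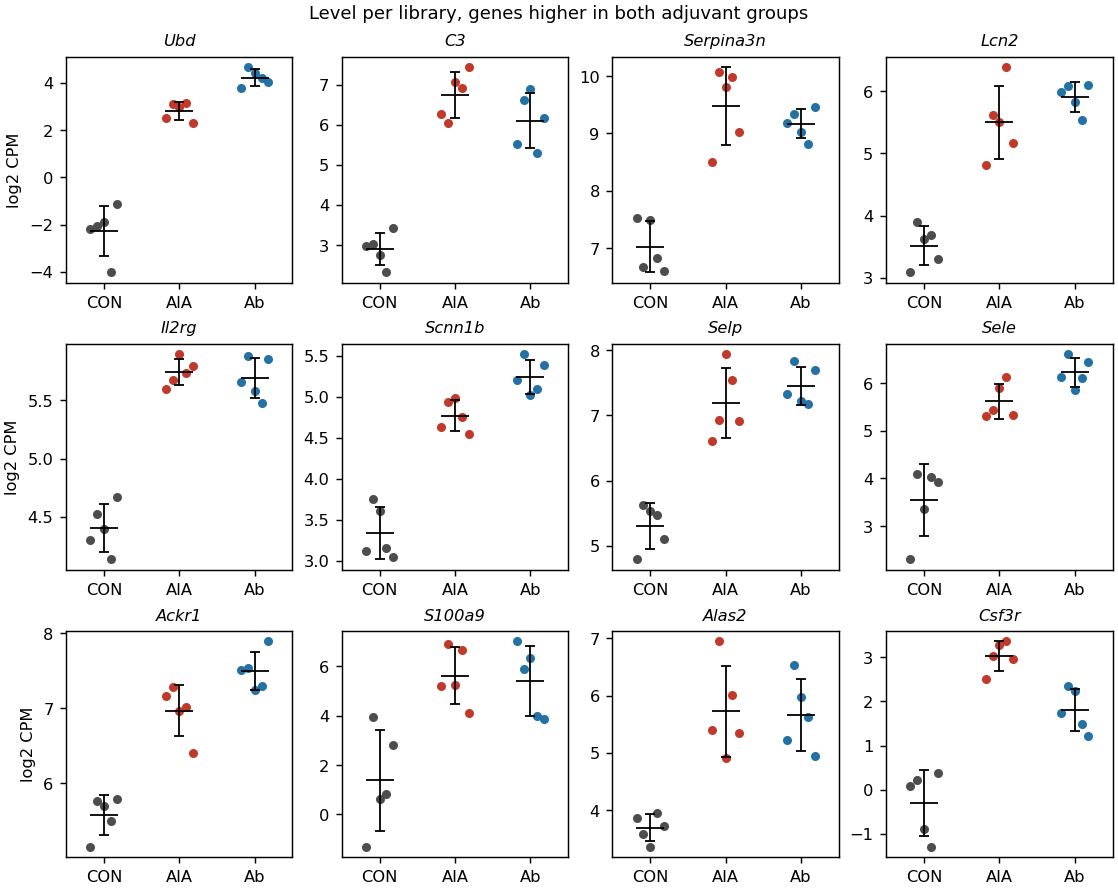
Log2 CPM per library (y axis) in CON, AIA and Ab (x axis) for genes that rose alike. Points are single rats, and the bars with whiskers are the group mean ± SD. In Ubd, C3, Il2rg, Sele and Selp the adjuvant libraries lie above every control library.

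The endothelial selectin genes Sele and Selp rose alike in both groups, while Icam1, an adhesion molecule of endothelium and other cells, rose unequally, with 0.44 in AIA and 0.85 in Ab. E-selectin, encoded by Sele, slows leukocytes on activated endothelium. Sele measured 2.3, 4.1, 3.36, 4.03 and 3.93 in the control libraries, 5.31, 5.44, 5.89, 6.12 and 5.34 in AIA and 6.13, 6.61, 5.85, 6.11 and 6.45 in Ab. CON 2 was the lowest library and the groups did not overlap, with a change of 2.28 ± 0.26 (adjusted p = 0.000121). P-selectin, which is stored in endothelial granules and platelets, is encoded by Selp, which measured 4.79, 5.63, 5.54, 5.47 and 5.11 in the control libraries, 6.61, 6.93, 7.94, 7.54 and 6.92 in AIA and 7.33, 7.83, 7.22, 7.18 and 7.69 in Ab. Its change was 2.03 ± 0.22 (adjusted p = 9.04e-05), and no adjuvant library reached down to the controls. Ackr1, a chemokine-binding receptor of venules, rose by 1.65 ± 0.15 (adjusted p = 2.39e-05), and Plvap, of the diaphragms of fenestrated endothelium, by 0.99 ± 0.11 (adjusted p = 9.04e-05). The general endothelial genes Vwf and Pecam1 rose by 0.76 ± 0.16 and 0.6 ± 0.11.

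Of the 19 endothelial genes tested 7 rose and 1 fell, 6 and 1 of them alike, with a median change of 0.27. Their summed level was 3280 to 4180 CPM in the control rats, 4230 to 5210 in AIA rats and 4650 to 6480 in Ab rats. In bulk tissue, more cells of a type and more RNA per cell cannot be told apart, and this holds for each list below. Pericyte and smooth muscle genes, another part of the vessel wall, had 0 of 11 called, with a median of -0.1.

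Most neutrophil transcripts tested rose alike in both groups. S100a9, which with S100a8 encodes calprotectin, measured -1.31, 3.94, 0.63, 0.82 and 2.8 in the control libraries, 5.2, 6.9, 5.26, 6.67 and 4.13 in AIA and 7.02, 5.89, 6.35, 3.99 and 3.88 in Ab. CON 7, at 3.94, overlapped the lowest adjuvant libraries, and the spread within each group was wide. The change of S100a9 was 3.57 ± 0.83 (adjusted p = 0.0141), and that of S100a8 was 3.55 ± 0.81. Csf3r, the receptor for granulocyte colony-stimulating factor, rose by 2.71 ± 0.31 (adjusted p = 0.000121) without overlap, and its rise was larger in AIA, with Ab minus AIA at -1.19 ± 0.31 (adjusted p = 0.0347). Fcnb, a ficolin of myeloid cells, rose by 2.86 ± 0.43 and Retnlg, a resistin-like protein of neutrophils, by 3.74 ± 0.78.

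Of 14 neutrophil genes tested 11 rose, 10 of them alike, and none fell. The list's median change was 2.86. The count of 11 fell to 7 without CON 2, CON 11, CON 14 or CON 17. Summed over 16 genes the level was 84.8 to 164 CPM in the control rats, 164 to 523 in AIA rats and 292 to 648 in Ab rats, and Ltf was at 0 in every control library. Mcemp1, of myeloid cells, rose by 2.35 ± 0.4. Lists of inflammatory monocyte genes (13 tested, 5 rose and 1 fell, 2 and 1 alike, median 1.01) and dendritic cell genes (11 tested, 3 rose and 1 fell, 0 alike, median 0.56) moved less uniformly. The dendritic cell gene that fell, Cd83, lost its call in 18 of 24 alternative settings. Of those that rose, Siglech lost its call in 5 of 23, Itgax in 3 of 24 and Irf8 in 0. The summed monocyte level went against the median, at 14700 to 26400 CPM in the control rats, 9100 to 17500 in AIA rats and 9050 to 14100 in Ab rats.

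Erythroid transcripts also rose. Alas2, the first enzyme of heme synthesis in red cell precursors, measured 3.86, 3.58, 3.36, 3.94 and 3.72 in the control libraries, 5.4, 6.95, 4.91, 6.02 and 5.34 in AIA and 5.22, 6.54, 5.98, 5.62 and 4.95 in Ab. The adjuvant libraries lay above all control libraries, with a change of 2.14 ± 0.34 (adjusted p = 0.00107). Slc4a1, the anion exchanger of red cells, rose by 2.57 ± 0.54, and Hbb, Hba-a1 and Hba-a2 rose by 1.54 ± 0.3, 1.41 ± 0.28 and 1.27 ± 0.26, although reads of near-identical globin copies may be split between them. Of 17 erythroid genes tested 7 rose, all alike, with a median of 1.54. Their summed level was 1190 to 1560 CPM in the control rats, 1810 to 7150 in AIA rats and 2270 to 5080 in Ab rats. CON 7 had the highest score of the controls in both the erythroid and the neutrophil list, at 0.67 and 1.4, and the part of blood cells in either result was not tested. Megakaryocyte and platelet genes had 2 called higher and 1 lower among 6 tested, with a median of 0.33.

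**Figure D3:**
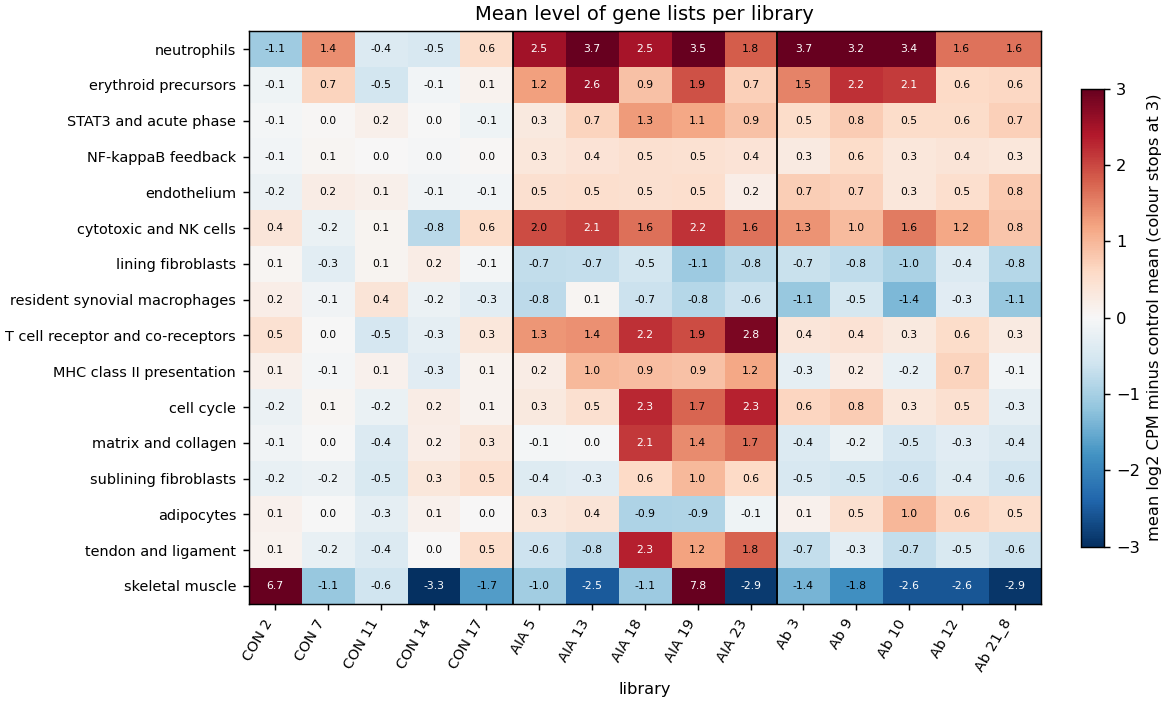
List level (mean log2 CPM over tested members, rows) in each library (columns), minus the control mean. Colour stops at 3. CON 7 stands out among controls for neutrophil genes, with a score of 1.4, and AIA scores there run from 1.82 to 3.74.

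Several acute phase genes that interleukin 6 family cytokines induce through STAT3 rose alike. Serpina3n, a serine protease inhibitor, measured 7.53, 6.68, 7.49, 6.83 and 6.61 in the control libraries, 8.51, 10.07, 9.81, 9.98 and 9.02 in AIA and 9.18, 9.34, 9.03, 8.82 and 9.46 in Ab. The lowest adjuvant library, AIA 5, lay above the highest control library, and the change was 2.3 ± 0.27 (adjusted p = 0.000121). Lcn2, an iron-siderophore binding protein, rose by 2.22 ± 0.23 (adjusted p = 5.67e-05) and haptoglobin, Hp, by 1.7 ± 0.42 (adjusted p = 0.0197). Il6st, the signalling chain gp130 itself, rose by 0.66 ± 0.1, ceruloplasmin, Cp, by 0.63 ± 0.08, and Lrg1 by 0.91 ± 0.15. Of 17 genes of this list 9 rose, 7 alike, and none fell, with a median change of 0.6. Without CON 2 or CON 11 the count of 9 fell to 5, and Hp was not called, at 1.60 (adjusted p = 0.0629) and 1.68 (adjusted p = 0.0531) by edgeR. Lcn2 is also on the neutrophil list.

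A list named NF-kappaB feedback was drawn up for genes which the transcription factor induces and which then limit or shape its activity. Of 19 genes tested 10 rose, 8 alike, and none fell. The count takes in Icam1, the adhesion molecule described above, and Il1rn, so not every member is a feedback regulator. The median change of the list was small, at 0.26. Nfkbiz, a nuclear IkappaB protein, measured 3.5, 3.75, 3.56, 3.46 and 4.1 in the control libraries, 4.28, 4.12, 4.97, 5.23 and 4.14 in AIA and 4.79, 4.61, 4.28, 4.28 and 4.27 in Ab. The lowest adjuvant library, at 4.12, lay just above the highest control library, at 4.10, and the change was 0.85 ± 0.19 (adjusted p = 0.0113). Nfkb2 rose by 0.47 ± 0.09, Relb by 0.68 ± 0.14, Tnfaip3 by 0.45 ± 0.11 and Bcl3 by 0.67 ± 0.17. Bcl3 lost its call in 6 of 24 alternative settings (without CON 11, CON 14, CON 17 or CON 2, without both muscle libraries and without AIA 18, 19 and 23), where its change ran from 0.56 to 0.65. Without CON 2 or CON 14 the count of 10 fell to 6, and Tnfaip3 was not called, at 0.38 (adjusted p = 0.0539) and 0.42 (adjusted p = 0.0553) by edgeR. It was also not called without both muscle libraries, at 0.35 (adjusted p = 0.0772, edgeR), and without AIA 18, 19 and 23, at 0.37 (adjusted p = 0.0671, edgeR). Il1rn, the receptor antagonist of interleukin 1, rose by 2.08 ± 0.25 (adjusted p = 0.000175), more in AIA than in Ab, with Ab minus AIA at -0.98 ± 0.26 (adjusted p = 0.0379). Cxcl1, a neutrophil chemokine, rose by 1.96 ± 0.24 (adjusted p = 0.000191).

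A common form of the NF-kappaB motif, GGGA and TTCC with any 2 bases between them, was searched on both strands of RefSeq promoter windows of assembly GRCr8, 250 bases before to 50 after a gene's start. It occurred in 17 of 280 genes that rose alike (6.07%), 5 of 380 that fell alike (1.32%) and 174 of 12386 tested genes (1.4%). Over all 27457 windows the share was 1.29%. The interferon response motif, GAAA and again GAAA with any 2 bases between, occurred in 6.43% of genes that rose alike, 1.32% of those that fell and 3.1% of tested genes. For the STAT motif TTCNNNGAA, which reads the same on both strands, the shares were 7.5%, 6.05% and 6.9%. Matches of different motifs may overlap, and a match describes letters, not a bound site. The windows of 4 NF-kappaB related genes, chosen after their values were seen, are shown because they hold the motif near the start of the gene. Capitals mark the matched letters as read on the gene's own strand, the match in Tnfaip3 lies on the opposite strand, and Cxcl1 holds a pair of overlapping matches. The windows lie at chr14:17479272-17479571 (minus strand) for Cxcl1, chr11:58251471-58251770 (plus strand) for Nfkbiz, chr1:255108124-255108423 (plus strand) for Nfkb2 and chr1:15543930-15544229 (minus strand) for Tnfaip3.
Cxcl1: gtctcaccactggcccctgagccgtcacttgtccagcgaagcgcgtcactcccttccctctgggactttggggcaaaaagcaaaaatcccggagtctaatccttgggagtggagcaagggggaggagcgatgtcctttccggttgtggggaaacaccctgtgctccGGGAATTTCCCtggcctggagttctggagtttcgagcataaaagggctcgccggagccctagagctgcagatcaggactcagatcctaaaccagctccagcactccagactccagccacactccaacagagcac
Nfkbiz: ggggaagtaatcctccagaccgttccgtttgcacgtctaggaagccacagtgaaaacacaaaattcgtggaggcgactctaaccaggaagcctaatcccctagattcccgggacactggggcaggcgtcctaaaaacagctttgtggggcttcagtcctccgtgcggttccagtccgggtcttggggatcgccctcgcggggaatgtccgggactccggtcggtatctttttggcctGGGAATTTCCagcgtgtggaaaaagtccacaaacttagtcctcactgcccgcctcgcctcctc
Nfkb2: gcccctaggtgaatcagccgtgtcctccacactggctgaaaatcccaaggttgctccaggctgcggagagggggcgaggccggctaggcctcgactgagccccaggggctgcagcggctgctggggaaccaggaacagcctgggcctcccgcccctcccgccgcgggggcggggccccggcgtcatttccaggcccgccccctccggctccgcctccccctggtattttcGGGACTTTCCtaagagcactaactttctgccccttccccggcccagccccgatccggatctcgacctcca
Tnfaip3: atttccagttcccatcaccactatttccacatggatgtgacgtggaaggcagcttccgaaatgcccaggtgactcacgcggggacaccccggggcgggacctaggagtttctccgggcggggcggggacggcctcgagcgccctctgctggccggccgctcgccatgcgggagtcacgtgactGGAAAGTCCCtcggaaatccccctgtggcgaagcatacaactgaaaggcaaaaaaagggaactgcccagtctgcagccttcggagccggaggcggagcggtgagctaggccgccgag

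Transcripts of the synovial lining fell alike. Prg4 measured 13.4, 12.76, 13.45, 13.12 and 12.45 in the control libraries, 12.21, 12.47, 12.38, 11.41 and 12.1 in AIA and 12.22, 12.42, 11.71, 12.2 and 12.1 in Ab. CON 17, at 12.45, lay within the range of the adjuvant libraries, and the other 4 controls lay above it. The change of Prg4 was -0.93 ± 0.18 (adjusted p = 0.00542), with -0.93 in AIA and -0.94 in Ab. Htra4, a secreted serine protease, fell without overlap, by 1.09 ± 0.19 (adjusted p = 0.00228), and the transcription factor gene Creb5 by 0.93 ± 0.12 (adjusted p = 0.000301). Dnase1l3, a secreted nuclease, and Has1, which makes hyaluronan, changed by -1.05 ± 0.18 and -0.79 ± 0.23. Has1 lost its call in 13 of 24 alternative settings (without AIA 13, AIA 19, AIA 23, AIA 5, Ab 10, Ab 21_8, Ab 3, Ab 9, CON 11, CON 14 or CON 2, with limma voom and without both muscle libraries), where its change ran from -0.79 to -0.64.

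Of 13 lining fibroblast genes tested 9 fell, 7 alike, and none rose, with a median change of -0.93. The summed level was 9250 to 16000 CPM in the control rats, 4120 to 8200 in AIA rats and 4970 to 7420 in Ab rats. Genes of sublining fibroblasts had 2 of 14 called, both lower, 1 of them alike, and a median of -0.13. The group medians had opposite signs, 0.43 in AIA and -0.87 in Ab, and Ab minus AIA was called in 7 of the 14. The list scores were -0.38 and -0.34 in AIA 5 and AIA 13, and 0.6 to 0.98 in AIA 18, 19 and 23. Fap, a fibroblast surface protease, was the one alike, at -0.87 ± 0.14, and Pdgfra moved unequally, with -0.11 in AIA and -1.01 in Ab. Pdgfra lost its call in 12 of 24 alternative settings (without AIA 13, AIA 19, Ab 10, Ab 21_8, Ab 3, CON 11, CON 14, CON 17 or CON 2, with the 10 libraries as 1 group, with limma voom and without both muscle libraries), where its change ran from -0.58 to -0.42.

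**Figure D4:**
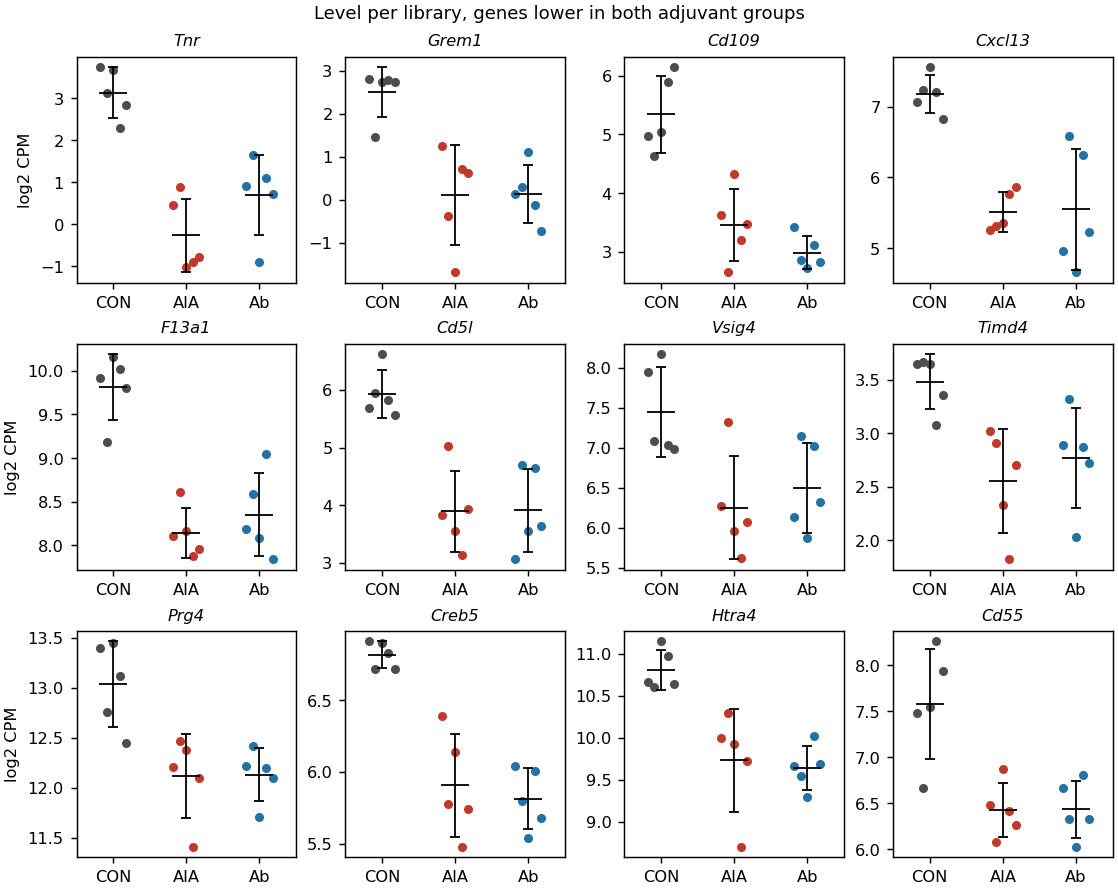
Log2 CPM per library (y axis) in CON, AIA and Ab (x axis) for genes that fell alike. Points are single rats, and the bars with whiskers are the group mean ± SD. Htra4, Cd5l, F13a1 and Cxcl13 do not overlap between control and adjuvant libraries, while Prg4 does.

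Several markers of resident synovial macrophages also fell. Cd5l, a secreted protein of tissue macrophages, measured 5.68, 5.94, 6.62, 5.82 and 5.56 in the control libraries, 3.83, 5.02, 3.56, 3.13 and 3.94 in AIA and 3.06, 4.69, 3.55, 4.64 and 3.64 in Ab. All adjuvant libraries lay below all control libraries, with a change of -1.93 ± 0.3 (adjusted p = 0.00102). F13a1, the coagulation factor XIII A subunit that resident macrophages express, changed by -1.55 ± 0.19 (adjusted p = 0.000161), the complement receptor gene Vsig4 by -1.05 ± 0.29, the phosphatidylserine receptor gene Timd4 by -0.78 ± 0.2, and Lyve1 by -0.82 ± 0.24. Vsig4 lost its call in 9 of 24 alternative settings (without AIA 18, AIA 23, Ab 10, Ab 21_8, Ab 3, CON 11 or CON 2, without both muscle libraries and without AIA 18, 19 and 23), where its change ran from -1.02 to -0.8. Timd4 lost its call in 5 of 24 alternative settings (without CON 11, CON 2 or CON 7, without both muscle libraries and without AIA 18, 19 and 23), where its change ran from -0.74 to -0.61. Lyve1 lost its call in 13 of 24 alternative settings (without AIA 18, AIA 19, AIA 23, AIA 5, Ab 10, Ab 21_8, Ab 3, CON 11, CON 14 or CON 2, with no filter, without both muscle libraries and without AIA 18, 19 and 23), where its change ran from -0.87 to -0.62. Of 13 genes tested 6 fell over the 10 rats, 5 alike, and none rose. The median of the list was -0.67, with -0.41 in AIA and -0.86 in Ab. Tested alone, AIA had 3 members lower and 1 higher, and Ab had 5 lower. Ab minus AIA was called in 2 members. The summed level was 1870 to 3020 CPM in the control rats, 1130 to 1990 in AIA rats and 818 to 1680 in Ab rats. The count of 6 fell to 2 without CON 2 or CON 11 and to 3 without Ab 3, Ab 10 or Ab 21_8, while Cd5l and F13a1 stayed called in each setting tried.

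Chemokines went in both directions. Cxcl13, which draws B cells, measured 7.06, 7.23, 7.56, 7.21 and 6.83 in the control libraries, 5.26, 5.31, 5.35, 5.77 and 5.86 in AIA and 4.96, 6.59, 4.66, 6.32 and 5.23 in Ab. Adjuvant libraries were lower throughout, with Ab 9 and Ab 12 nearest to the controls, and the change was -1.56 ± 0.25 (adjusted p = 0.0015). Ccl22, a chemokine for CCR4-bearing T cells, fell by 1.85 ± 0.31, and Ccl5, which draws T cells and monocytes, rose by 1.82 ± 0.28 (adjusted p = 0.00102). Of 19 chemokine genes tested 6 rose and 3 fell, 3 and 2 alike, with a median of 0.52. The cytokine list had 2 of 13 rise and 1 fall, 1 alike, with a median of 0.03. The gene that fell and was alike, Csf1, lost its call in 17 of 24 alternative settings. Csf3, which rose, lost its call in 14 of the 23 in which it was tested. Il1b, a pyrogenic cytokine, gave 2.11 in AIA and 0.95 in Ab. Il1b lost its call in 2 of 24 alternative settings (without both muscle libraries and without AIA 18, 19 and 23), where its change ran from 1.14 to 1.36.

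The largest fall among genes changed alike without overlap, at a mean of at least 1 log2 CPM, was in Tnr, which encodes tenascin-R, a matrix protein known mainly from the nervous system. Tnr measured 3.75, 3.13, 3.67, 2.29 and 2.85 in the control libraries, 0.46, 0.89, -1.01, -0.9 and -0.77 in AIA and 0.92, 1.64, -0.89, 1.11 and 0.72 in Ab. The groups did not overlap, with a change of -2.86 ± 0.37 (adjusted p = 0.000303). Grem1, which encodes an antagonist of bone morphogenetic proteins, fell by 2.3 ± 0.37 (adjusted p = 0.00141). Cd109, a surface protein that binds transforming growth factor beta, fell by 2.18 ± 0.26 (adjusted p = 0.000127). The semaphorin gene Sema3d changed by -1.71 ± 0.21, Csmd1, a complement-regulating membrane protein, by -1.88 ± 0.22, the carboxypeptidase gene Cpa6 by -1.98 ± 0.26, and Car10 by -1.94 ± 0.25. Smallest in p among genes that fell were Olfm1 and Cpne7. Olfm1 measured 5.08, 4.58, 5.14, 5.14 and 4.78 in the control libraries, 3.75, 3.78, 3.97, 3.47 and 3.83 in AIA and 3.73, 3.89, 3.48, 3.94 and 3.66 in Ab. Its adjuvant libraries spanned 0.5 log2 units, from 3.47 to 3.97, below a lowest control of 4.58, and the change was -1.21 ± 0.11 (adjusted p = 1.3e-05). Cpne7 changed by -1.06 ± 0.09 (adjusted p = 1.3e-05).

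Several immune lists were called over the 10 rats but were not alike in the 2 groups. The T cell list had 8 of 14 rise and only Lck, a T cell receptor kinase, alike, with median changes of 2.44 in AIA and 0.39 in Ab. The summed level of the list did not follow these medians, at 286 to 434 CPM in the control rats, 237 to 380 in AIA rats and 156 to 305 in Ab rats. Cd8a, the CD8 alpha chain, gave 2.91 in AIA and 1.14 in Ab, with Ab minus AIA at -1.78 ± 0.36 (adjusted p = 0.0179). MHC class II genes had 6 of 14 rise and 0 alike, with medians of 1.11 and 0.19. Cd74, the invariant chain, gave 1.07 in AIA and 0.34 in Ab. Cd74 lost its call in 10 of 24 alternative settings (without AIA 23, Ab 9, CON 11, CON 14, CON 17, CON 2 or CON 7, with the 10 libraries as 1 group, without both muscle libraries and without AIA 18, 19 and 23), where its change ran from 0.61 to 0.77. Cell cycle genes had 8 of 28 rise and 0 alike, with medians of 1.65 and 0.42. Their summed level was 393, 293 and 398 CPM in AIA 18, 19 and 23, but 151 and 165 in AIA 5 and AIA 13, against 141 to 163 in control and 145 to 193 in Ab. Top2a gave 3.16 in AIA and 1.09 in Ab. Cytotoxic and NK cell genes stood between, with 10 of 11 rising and 5 alike and medians of 2.04 and 1.29: Tbx21, the T-bet gene, rose by 2.21 ± 0.35 (adjusted p = 0.00122) and Gzma, a granzyme, by 1.79 ± 0.35. Tested alone, AIA had 10 cytotoxic, 13 T cell and 19 cell cycle genes higher. Ab had 3, 1 and 0 higher, and 1 T cell gene lower. The counts over the 10 rats leaned on single libraries: T cell genes that rose numbered 3 without CON 7 or CON 11, 4 without CON 14 and 5 without AIA 19, Ab 12 or CON 17. Cell cycle genes numbered 2 without CON 2 or CON 11, 5 without CON 7 or CON 14, 15 without AIA 13 and 16 without AIA 5. Cytotoxic genes numbered 5 without CON 11 and 6 without CON 14. Without both muscle libraries Top2a was not called by edgeR, at 2.11 (adjusted p = 0.0562), nor with all libraries by limma voom, at 2.13 (adjusted p = 0.0569).

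**Figure D5:**
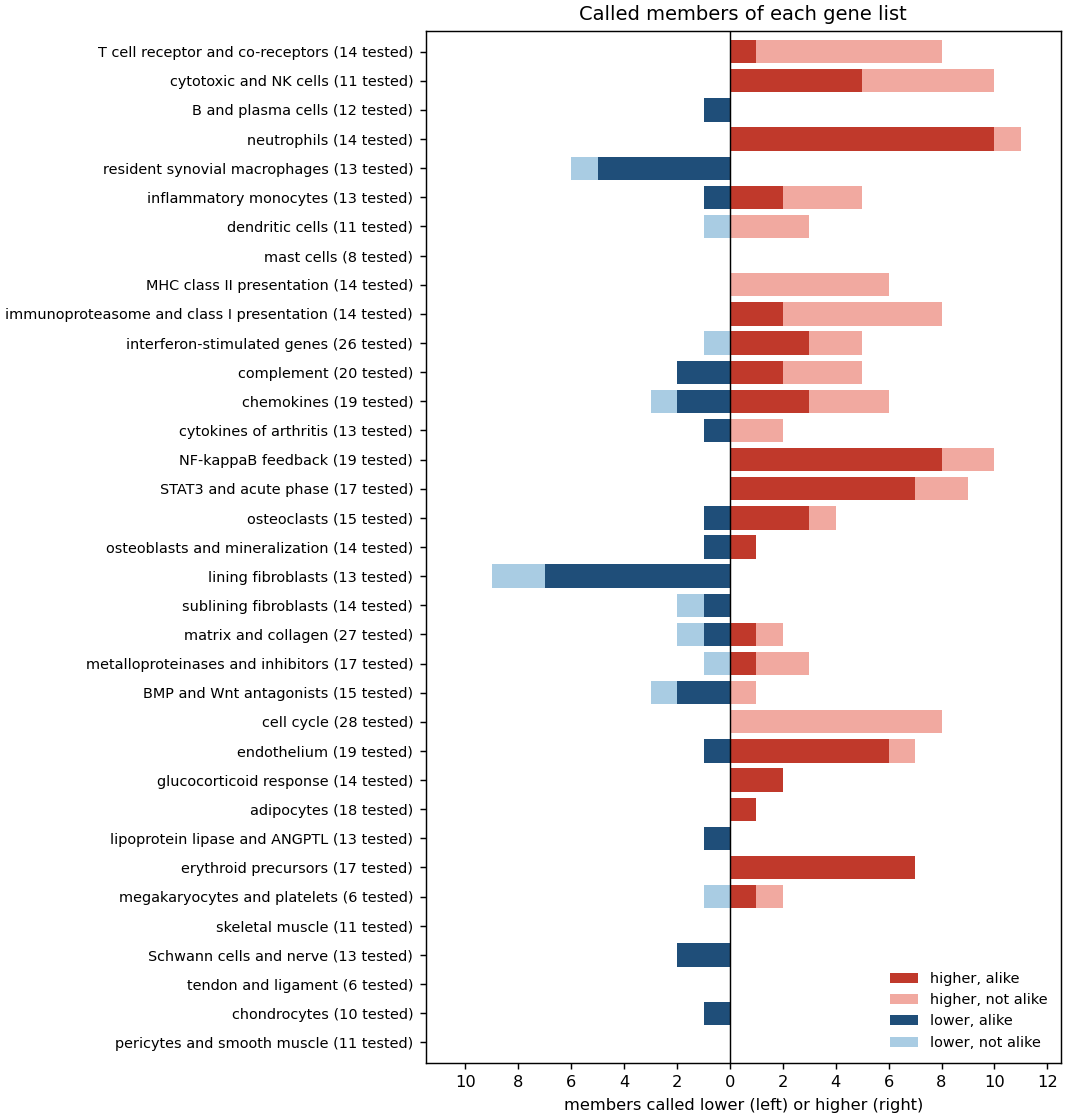
Number of members of each gene list (y axis) called higher (right) or lower (left) over all adjuvant-injected rats (x axis, genes). Darker parts of the bars are members changed alike. Neutrophil genes have 10 of 11 called members alike, MHC class II and cell cycle genes 0.

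Matrix genes had medians of opposite sign in the 2 groups. Of 27 tested 2 rose and 2 fell, with medians of 0.99 in AIA and -0.35 in Ab, and Ab minus AIA was called in 19. Col15a1, of basement membranes, rose alike by 0.89 ± 0.19, and Fn1, fibronectin, fell alike by 0.8 ± 0.18, a call lost without both muscle libraries, at -0.67 (adjusted p = 0.0581, edgeR). Some collagen genes outside the list also moved alike, in both directions. Col18a1 (1.23 in AIA and 0.93 in Ab) and Col4a2 (0.47 and 0.45) rose, and Col4a3 (-0.86 and -0.71) and Col28a1 (-0.74 and -0.58) fell. The higher AIA level of the matrix list sat in 3 of the 5 AIA libraries. Summed matrix levels were 81500, 57100 and 63000 CPM in AIA 18, 19 and 23, but 29300 and 33700 in AIA 5 and AIA 13, which lay below every control library (35800 to 41500) as the Ab libraries did (23200 to 30100). Tendon and ligament genes summed to 1380, 462 and 886 CPM in those 3 libraries and to 272 and 204 in AIA 5 and AIA 13. Metalloproteinase and inhibitor genes had 3 of 17 rise and 1 fall, 1 alike, with medians of 0.9 and 0.09. BMP and Wnt antagonists had 1 of 15 rise and 3 fall, with a median of -0.04.

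Outside the lists, the called genes of smallest p in which Ab minus AIA was itself called and the change was not alike included F11r and Rac2 among those that rose. Rac2, a GTPase of blood cells, measured 3.09, 3.22, 2.93, 2.71 and 3.46 in the control libraries, 4.1, 4.59, 4.76, 4.68 and 5.05 in AIA and 3.95, 3.96, 3.89, 3.85 and 3.4 in Ab. AIA exceeded control throughout, while Ab 21_8, at 3.40, lay within the control range. Ab minus AIA was -0.84 ± 0.17 (adjusted p = 0.0161). F11r, a junctional adhesion molecule, moved more in Ab, with 0.39 in AIA and 0.7 in Ab. Among those that fell, Siglec10, an inhibitory lectin of leukocytes, gave -0.65 in AIA and -1.93 in Ab, and Nrip3 gave -1.55 in AIA and -0.81 in Ab.

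Immunoproteasome and class I presentation genes had 8 of 14 rise, 2 alike, with a median of 0.33 (0.2 in AIA and 0.42 in Ab). Interferon-stimulated genes had 5 of 26 rise and 1 fall, 3 alike, with a median of 0.17 (0.0 in AIA and 0.41 in Ab). With each group tested alone, 3 interferon-stimulated genes were higher and 1 lower in AIA, and 9 were higher in Ab. Osteoclast genes had 4 of 15 rise and 1 fall, 3 and 1 alike, with a median of -0.02. Of those that rose, Acp5 lost its call in 10 of 24 alternative settings, Car2 in 7 and Oscar in 0. Tnfrsf11a, the receptor RANK, rose by 0.67 ± 0.15. Tnfrsf11a was not called without both muscle libraries, at 0.61 (adjusted p = 0.0525, edgeR). Osteoblast genes had 1 of 14 rise and 1 fall, with a median of -0.09, chondrocyte genes 1 of 10 fall with -0.38, and Schwann cell genes 2 of 13 fall with -0.22. Osteoblast genes summed to 22700, 16500 and 16300 CPM in AIA 18, 19 and 23, but to 3860 and 3980 in AIA 5 and AIA 13. Control rats had 2110 to 7270 and Ab rats 2320 to 3440. Chondrocyte genes summed to 158, 35.1 and 44.7 CPM in AIA 18, 19 and 23, and to 7.47 and 5.6 in AIA 5 and AIA 13. Control rats had 7.16 to 31.6 and Ab rats 4.16 to 20.7. B and plasma cell genes had 1 of 12 fall (median -0.27), adipocyte genes 1 of 18 rise (0.27), and the lipoprotein lipase and ANGPTL list 1 of 13 fall (-0.05). That gene was Angptl2, which encodes a secreted relative of ANGPTL4, at -0.42 ± 0.11; without CON 17 it was not called by edgeR, at -0.29 (adjusted p = 0.0603). No member was called among 8 mast cell genes (median -0.11), 11 skeletal muscle genes (-2.58) or 6 tendon and ligament genes (0.51). The mast cell list does not hold every gene named for a mast cell protease. Outside it, Mcpt8 (2.9 in AIA and 2.2 in Ab), Mcpt9 (4.5 and 4.3) and Mcpt10 (4.9 and 3.8) rose alike. They were picked after their values were seen.

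Angptl4, whose product is the labelled target of the antibody, measured 7.38, 7.97, 7.22, 8.04 and 7.57 in the control libraries, 7.71, 9.19, 7.86, 8.69 and 7.28 in AIA and 9.11, 8.31, 8.18, 8.73 and 8.86 in Ab. Control and adjuvant libraries overlapped. The change was 0.82 ± 0.28 (adjusted p = 0.0832) and was not called, and it was 0.64 in AIA and 1.01 in Ab.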

How the data were processed

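RNA from synovial tissue of 15 rats was sequenced. Each mRNA library started from 1.3 ug of total RNA and used a SMARTER kit, per the labels' protocols. The authors deposited raw counts per gene symbol and FPKM values, with 1 column per library. The deposited FPKM equals the count per fixed gene length and library total within 0.1% for 100% of 291027 values, so counts were tested and FPKM was used only for levels. Aligner and counter: not given in the sources used here. Rat RefSeq (GRCr8) holds 20949 of the 23342 symbols, whereas GRCm38 and mm10, both mouse, are the builds in the submitters' processing notes, so the annotation is uncertain. Counts of near-identical genes (globins) may be split between copies.

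In R 4.3.3, edgeR 4.0.16 kept genes by filterByExpr, leaving 16046 and removing 7296. One fit with TMM factors and a 3-level group term covered all 15 libraries, and contrasts were tested by the quasi-likelihood F test with Benjamini-Hochberg adjustment over all tested genes. Log2 CPM used a prior count of 2. Alternatives were other scaling (RLE, library totals), DESeq2 1.42.0, limma 3.58.1 voom with quality weights, other filters, the 10 libraries as 1 group, other limits of likeness, and leaving out libraries. Counts were also simulated for the averaged contrast, with 15914 genes fitted. There 36 of 67 genes changed 1.5-fold, 57 of 67 changed 2-fold and 62 of 66 changed 4-fold were recovered, and 6.63% of calls were false. These rates describe the simulated counts only. Whether they hold for the real libraries, some of which stood apart within their group, was not tested. The same goes for genes that differed between AIA and Ab. The total per library limits precision for genes of low count.

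The rats, gene lists (35, with 561 names, 552 in the table and 496 tested) and rules were chosen with earlier results of these data known. Named genes were the 15 largest changes alike in each direction without overlap at a mean of at least 1 log2 CPM. For these, the lack of overlap was a condition of naming. Up to 4 called members of each list, the 10 smallest p and Angptl4 were also named. So were the 5 smallest p in each direction among unequal genes in which Ab minus AIA was called. Other list members that are named were chosen after their values were seen. The rule gives 142 genes; the text describes a part of them, picked with their values known, so the stability of calls is given over the whole set. A few genes of the set are not reported here. Promoter windows and their letters come from RefSeq, and 280 genes that rose alike and 380 that fell alike had one. P-values measure the spread between libraries, each taken as 1 rat. No 2 libraries of the same group agreed within sampling noise, with Spearman correlations between 0.963 and 0.993 and a chi-square per degree of freedom of at least 21.6.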

Additional observations from a re-analysis of the deposited data

Results flagged for a closer look

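Of the 142 genes given by the rule for named genes, 35 differed between the adjuvant groups by edgeR's quasi-likelihood test. The report describes 86 genes with tests, and 11 of these differed in that way. Ab lay above AIA by a log2 difference of 1.41 in Ubd, 0.74 in Nrip3 and 0.31 in F11r. Ab lay below AIA in the other 8, with Ab minus AIA at -2.07 in Top2a, -1.78 in Cd8a, -1.27 in Siglec10, -1.19 in Csf3r, -0.98 in Il1rn, -0.89 in Pdgfra, -0.84 in Rac2 and -0.65 in Cfp. Ubd, Csf3r and Il1rn are among the genes changed alike.

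Over the same 86 genes in 3 groups each, in 15 of 258 groups of 5 libraries a single library stood far from the others, where chance flags about 1 in 20. Among controls these were CON 7 in Bcl3 (4.83 log2 CPM) and Grem1 (1.46), and CON 17 in Angptl2 (7.68). In AIA they were AIA 19 in Angptl2 (6.42), Ccl22 (-1.53) and Cpne7 (4.71), AIA 23 in Cmahp (1.89) and Lck (3.8), AIA 5 in Bcl3 (4.39) and Il1rn (2), and AIA 13 in Lyve1 (7.86). In Ab they were Ab 9 in Alox15 (4.15), Ab 12 in Tnfaip3 (4.3), and Ab 21_8 in Mt2A (6.64) and Rac2 (3.4).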

How the results depend on the processing

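No gene changed alike reversed its sign in any of the 24 settings in which it was tested, but counts depended on the libraries. Leaving out 1 library gave 345 to 769 genes higher and 464 to 823 lower, 244 to 399 and 357 to 534 changed alike, 132 to 251 and 183 to 301 called in each group, and 28 to 364 that also differed between groups. Called list members ran from 7 to 11 for neutrophils, 6 to 10 for erythroid, 7 to 9 for endothelium, 6 to 10 for NF-kappaB, 5 to 11 for STAT3, 8 to 10 for lining fibroblasts, 2 to 8 for resident macrophages, 5 to 10 for cytotoxic, 2 to 16 for cell cycle and 3 to 10 for T cell genes. Without both muscle libraries the counts were 303 higher, 449 lower, 224 alike higher, 101 and 155 called in each group, 26 that differed, 6 neutrophil, 6 NF-kappaB, 2 macrophage, 1 cell cycle and 5 T cell genes. Without AIA 18, 19 and 23 they were 155 and 119 called in each group, 0 that differed, 6 NF-kappaB, 2 macrophage, 2 cell cycle and 3 T cell genes. DESeq2 gave 978 higher, 370 called higher in each group, 360 that differed and 18 cell cycle genes. Limma voom gave 415 that differed and 7 neutrophil genes. The 10 libraries as 1 group gave 46 that differed, 4 cell cycle and 3 T cell genes. At a limit of likeness of 0.25, 216 rose and 292 fell alike. Of the 133 called genes named by rule, 39 lost the call in at least 1 setting and 15 in 6 or more. The cause was not tested, except that fewer libraries were used where libraries were left out. No paired analysis was possible because the groups share no replicate numbers. Genes of low count limit what this depth can show.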
